A study of Mus musculus with 8 samples.

Results

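Arf1 and its 5 paralogs, Arf2, Arf3, Arf4, Arf5 and Arf6, encode the ADP-ribosylation factors, a family of small GTPases. The rows were taken by gene symbol, which found 6 genes of 47643 in the deposited tables. All 8 libraries were made from the spinal cord of C57BL/6 mice, with 4 mice labelled homozygous and 4 labelled heterozygous. The labels state, identically for all samples, that tamoxifen was injected intraperitoneally at 100 mg/kg to delete Arf1, and mice of 2 to 10 months were used. The sex and age of each animal, the allele behind the words homozygous and heterozygous, the Cre driver and the exon deleted could not be read from the labels. The series concerns Arf1 in neurons, but the labels do not say in which cells of the cord Arf1 was targeted. No group of untreated or wild-type mice was analysed here, so both groups are animals from the deletion experiment.

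ADP-ribosylation factors switch between a GDP-bound form in the cytosol and a GTP-bound form on membranes. Guanine nucleotide exchange factors (GEFs) load them with GTP, and GTPase-activating proteins (GAPs) end the cycle by having the GTP hydrolysed. Mammalian members fall into class I (Arf1, Arf2 and Arf3), class II (Arf4 and Arf5) and class III (Arf6). Classes I and II work mainly at the Golgi, where Arf1 recruits the COPI coat and clathrin adaptors, while Arf6 acts at the plasma membrane and on endosomes. Arf2 is present in the mouse and was lost in the human lineage.

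The members are close in sequence, which bears on how reads are assigned to them. Shown here, 5′ to 3′, are 90 coding bases of each gene around the phosphate-binding loop of the GTPase, from GENCODE M21 transcripts on GRCm38. Capitals mark bases that differ from Arf1 at the aligned position.
Arf1: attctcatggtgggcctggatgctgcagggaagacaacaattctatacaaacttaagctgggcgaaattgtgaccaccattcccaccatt
Arf2: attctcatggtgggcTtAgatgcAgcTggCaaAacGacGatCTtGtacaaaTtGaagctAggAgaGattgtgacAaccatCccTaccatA
Arf3: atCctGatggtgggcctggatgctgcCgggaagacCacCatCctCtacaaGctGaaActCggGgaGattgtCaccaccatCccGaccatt
Arf4: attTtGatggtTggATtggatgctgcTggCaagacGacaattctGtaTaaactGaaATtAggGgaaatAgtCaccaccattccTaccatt
Arf5: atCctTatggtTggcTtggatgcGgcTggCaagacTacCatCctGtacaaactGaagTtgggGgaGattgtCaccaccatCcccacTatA
Arf6: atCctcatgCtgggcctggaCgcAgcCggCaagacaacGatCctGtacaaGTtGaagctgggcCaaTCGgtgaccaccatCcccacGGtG
The stretch of Arf1 lies in exon 2 at chr11:59213341-59213430 on the minus strand and holds coding bases 58 to 147. Those of Arf2 (chr11:103969155-103969244, plus strand), Arf3 (chr15:98742594-98742683, minus strand) and Arf6 (chr12:69372839-69372928, plus strand) also lie within exon 2. Those of Arf4 (chr14:26638477-26646738, plus strand) and Arf5 (chr6:28423746-28424369, plus strand) join exons 1 and 2, with the intron left out. Of the 90 bases, 20 differed from Arf1 in Arf2, 16 in Arf3, 18 in Arf4, 19 in Arf5 and 20 in Arf6, spread along the stretch.

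Over the whole coding sequence, Arf3 was the closest to Arf1, with 83.6% of 543 aligned bases identical, followed by Arf2 with 80.5%. Arf5 was at 73.0%, Arf6 at 69.7% and Arf4 at 69.3%. The class II pair Arf4 and Arf5 shared 78.7% of 540 bases. The longest run that an Arf1 transcript shared with a paralog was 39 bases with Arf6, against 29 with Arf3, 23 with Arf5, 17 with Arf2 and 11 with Arf4. Reads were 150 bases long from both ends, so these runs are shorter than a read. The Arf3 and Arf6 transcripts compared, of 4566 and 1534 bases, are other versions than those in the files, where Arf6 has 3730 bases. Runs shared with the versions in the files were not measured. Of 1770 windows of 31 bases in the main Arf1 transcript, 367 (20.7%) also occurred in another annotated gene, mostly in processed pseudogenes. Of these pseudogenes, Gm19587 had at most 2 counts in any library. The counts of AC127331.2, which shared the most runs with Arf1, were not looked up. RSEM divides reads that match several genes, and the Arf1 and Arf2 counts were whole numbers in all 8 libraries.

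The genes lie on 5 chromosomes in GRCm38. Arf1 spans chr11:59211412-59228270 on the minus strand and Arf2 chr11:103966739-103985337 on the plus strand. Arf3 is at chr15:98736634-98763214 on the minus strand, Arf4 at chr14:26638074-26665084, Arf5 at chr6:28423560-28426602 and Arf6 at chr12:69372150-69373783, the last 3 on the plus strand. On the opposite strand Arf4 overlaps Arf4os and Pde12, Arf5 overlaps Gcc1 and Arf6 overlaps Gm9887, and the sources used here do not say whether counting used strand. Arf4os had at most 3 counts and Gm9887 at most 6 in any library. Positions and overlaps are those of GENCODE M21, whose Arf6 transcript of 1534 bases is shorter than the 3730 bases in the files. They can differ for the versions counted.

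Libraries held 26321522 to 37879426 expected counts, and each Arf gene had at least 567 in each library. Homozygous replicate 3 stood apart, with 92.36% of reads mapped against 98.33% to 98.53% elsewhere and 2.44% ribosomal bases against 0.10% to 0.34%. Neuronal marker genes summed to 7119 to 8014 CPM (read counts scaled by library total and TMM factor) in homozygous and 7533 to 8854 in heterozygous libraries, and none of the markers in the 10 lists checked was at 0 throughout. Markers of Schwann cells summed to 57.9 to 108 CPM in homozygous and 163 to 613 in heterozygous libraries, and those of meningeal fibroblasts to 23.4 to 39.7 CPM in homozygous and 41.3 to 98.6 CPM in heterozygous libraries, with no overlap in either list, while the other 8 lists overlapped. Taken singly, 9.28% of all genes tested did not overlap in CPM over 8 libraries, in either direction. Without the library labelled homozygous replicate 1, edgeR called 2 of 10 neuronal markers, 1 of 6 microglial and 1 of 6 Schwann cell markers lower and none of the 10 lists' genes higher (adjusted p under 0.05, as for 1.22% of all genes in either direction). Their part in the values below was not tested. In tissue RNA, fewer cells of a type and less RNA per cell cannot be told apart.

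Arf1 transcript was scarce in homozygous replicates 2, 3 and 4 and not in replicate 1. It stood at 316, 20.5, 19.8 and 38.9 TPM (transcript abundance scaled for length and depth) in homozygous replicates 1 to 4, and at 351, 310, 332 and 345 TPM in heterozygous replicates 1 to 4. Homozygous replicates 2 to 4 lay far below every heterozygous library, while the library labelled homozygous replicate 1 lay within the heterozygous range. Whether its label is wrong or Arf1 was not deleted in that animal was not tested, and the Arf1 level cannot tell these apart. In CPM, replicates 2, 3 and 4 kept 7.18%, 7.28% and 12.7% of the heterozygous mean, and the library labelled homozygous replicate 1 had 97.9%. These percentages rest on 605, 567 and 1222 expected counts and on 11755 in the library labelled homozygous replicate 1. The counts cover the whole gene, so they do not show which exons the remaining reads came from.

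Over all 8 libraries Arf1 missed the threshold of edgeR's quasi-likelihood test of 0.05, with a log2 fold change (homozygous over heterozygous) of -1.67 (95% interval -3.95 to 0.61, adjusted p = 0.42). Of the 16511 genes tested in that fit 0 passed, a share of 0.0%, and the unadjusted p was under 0.05 for 1299 higher and 1470 lower genes. DESeq2 called 270 higher and 409 lower but gave Arf1 no adjusted p, and limma-voom called 0. The Arf1 estimate over the same 8 libraries was -2.60 by limma-voom (adjusted p = 0.153) and -2.78 by limma on log2(TPM + 1) (adjusted p = 0.127), and passed in neither. Over all alternatives, which include fits with libraries left out, the adjusted p of Arf1 ranged from 0.000796 to 0.624. The low end was edgeR without the library labelled homozygous replicate 1. Wherever that library was kept and an adjusted p was given, it was at least 0.127. Without the library labelled homozygous replicate 1 the edgeR log2 fold change of Arf1 was -3.46 (SE 0.21, 95% interval -3.95 to -2.97, adjusted p = 0.000796), lower in 3 of 3 libraries. Since the Arf1 level itself decided which library to omit, this p does not test Arf1 independently and serves only as a description. In this fit 202 of 16560 genes passed, or 1.22%, 91 higher and 111 lower. The split turned with the scaling, to 60 higher and 150 lower by library totals and to 95 higher and 2095 lower by limma on log2(TPM + 1). That count ranged from 6 without homozygous replicate 3 to 402 without homozygous replicate 4. It was 22 when homozygous replicate 2 was omitted, and 58, 51 and 33 when heterozygous replicate 2, 3 or 4 was. The authors' deposited table, made from 6 libraries without replicate 1 of either group, lists Arf1 among 185 genes with a log2 fold change of -3.50 and a false discovery rate of 2.38e-39; Arf2 to Arf6 are not among the genes of the authors' deposited table.

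**Figure D1:**
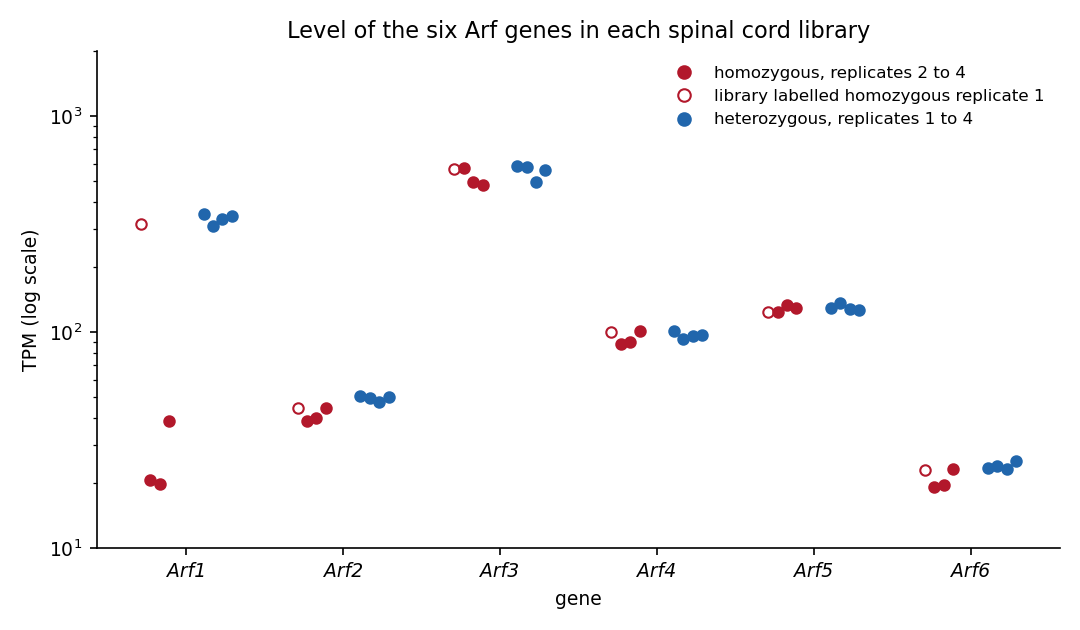
TPM (log scale) of each Arf gene, with 1 point per library, homozygous left of heterozygous within each gene and an open point for the library labelled homozygous replicate 1. Arf1 lies between 19.8 and 38.9 TPM in homozygous replicates 2 to 4 and between 310 and 351 TPM in heterozygous libraries, while each paralog stays within a narrow band.

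Among the class I paralogs, Arf3, a Golgi and endosomal GTPase, was the most abundant family member in every library. It was at 566, 571, 495 and 478 TPM in homozygous replicates 1 to 4 and at 586, 581, 496 and 560 TPM in heterozygous replicates 1 to 4. The groups overlapped almost fully, with lower and higher libraries in both. Its log2 fold change was 0.10 over 8 libraries (95% interval -0.09 to 0.30, edgeR adjusted p = 0.571) and 0.11 over 7 (-0.11 to 0.33, edgeR adjusted p = 0.571). Arf3 ranked 188th of 16511 genes by mean TPM in homozygous replicates 2 to 4 and 184th in heterozygous libraries.

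Arf2, the least abundant class I member in heterozygous libraries, was at 44.5, 38.6, 40.0 and 44.4 TPM in homozygous replicates 1 to 4, against 50.6, 49.2, 47.3 and 50.2 TPM in heterozygous replicates 1 to 4. Every homozygous library, including the one with Arf1 at the heterozygous level, lay below every heterozygous one. In TPM this ordering held for 13.6% of all 16511 genes tested, and among the 6 Arf genes for Arf2 alone. Without the library labelled homozygous replicate 1 it held for Arf1 and Arf2, and for 30.2% of 16560 genes. The median log2 TPM difference of all genes was itself -0.14 over 8 libraries and -0.17 over 7. On the TMM scale the Arf2 groups overlapped, with 55.1, 54.0, 59.1 and 56.6 CPM in homozygous replicates 1 to 4 and 60.5, 59.9, 58.6 and 56.3 CPM in heterozygous replicates 1 to 4. There its log2 fold change was -0.07 (95% interval -0.18 to 0.05, edgeR adjusted p = 0.547) over 8 libraries and -0.06 (-0.19 to 0.08, edgeR adjusted p = 0.633) over 7. By limma on log2(TPM + 1) it was -0.26 over 7 libraries (adjusted p = 0.047); adjusted p over its alternatives ranged from 0.0458 to 0.883.

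The class II genes act in the early secretory pathway and stood between the most and least abundant members. Arf5 was at 123, 124, 133 and 129 TPM in homozygous replicates 1 to 4 and at 129, 136, 128 and 126 TPM in heterozygous replicates 1 to 4, with overlapping groups. Arf4 was at 99.5, 88.1, 89.97 and 101 TPM in homozygous replicates 1 to 4 and at 100.4, 92.6, 95.4 and 96.2 TPM in heterozygous replicates 1 to 4, again overlapping. Neither passed in either fit. Among the edgeR estimates of the paralogs in both fits, the largest was that of Arf5 over 7 libraries, a log2 fold change of 0.17 (95% interval -0.01 to 0.35, edgeR adjusted p = 0.283), and Arf4 was at 0.12 (-0.02 to 0.26, edgeR adjusted p = 0.328). Over 8 libraries both were near this, at 0.12 for Arf5 (edgeR adjusted p = 0.492) and 0.11 for Arf4 (edgeR adjusted p = 0.338). With 1 of the 7 libraries left out, the Arf5 estimate was lowest without homozygous replicate 3, at 0.08 (edgeR adjusted p = 0.684). It was highest without homozygous replicate 4, at 0.21 (edgeR adjusted p = 0.227). The positive signs of Arf3, Arf4 and Arf5 held under count scalings and turned negative on the log2 TPM scale.

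Arf6, the class III member of the plasma membrane and endosomes, was the least abundant in every library. It was at 23.0, 19.1, 19.6 and 23.1 TPM in homozygous replicates 1 to 4 and at 23.4, 23.8, 23.1 and 25.2 TPM in heterozygous replicates 1 to 4. Homozygous replicates 2 and 3 were the lowest, and the groups overlapped at replicate 4 of the homozygous group. On the TMM scale its log2 fold change was -0.00 over 8 libraries (95% interval -0.12 to 0.12, edgeR adjusted p = 0.995) and -0.00 over 7 (-0.14 to 0.14, edgeR adjusted p = 0.995). By limma on log2(TPM + 1) it was -0.17 over 8 libraries (adjusted p = 0.222) and -0.21 over 7 (adjusted p = 0.126), and its adjusted p over all alternatives ranged from 0.124 to 0.998.

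In CPM the 2 groups overlapped for all 6 genes over 8 libraries, while 9.28% of all genes did not overlap. Over 7 libraries Arf1 alone of the 6 did not overlap, against 18.5% of all genes. As fold changes on the TMM scale, the 95% intervals over 7 libraries ran from 0.88 to 1.06 for Arf2, from 0.93 to 1.26 for Arf3, from 0.985 to 1.201 for Arf4, from 0.99 to 1.28 for Arf5 and from 0.91 to 1.10 for Arf6. On this scale each gene's interval bounds its own difference, and the widest upper bound, 1.28, was that of Arf5.

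**Figure D2:**
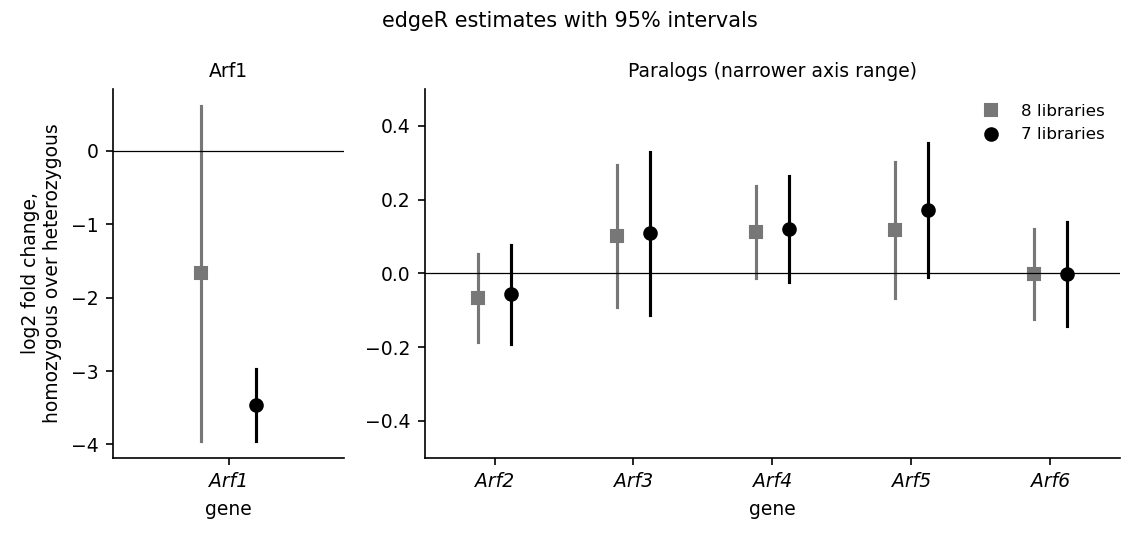
Log2 fold change, homozygous over heterozygous, with 95% intervals from edgeR for Arf1 (left panel) and Arf2 to Arf6 (right panel, narrower axis), over 8 libraries (squares) and 7 libraries (circles). The Arf1 interval covers 0 over 8 libraries, from -3.95 to 0.61, and runs from -3.95 to -2.97 over 7, while every paralog interval covers 0.

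The order of the genes by TPM differed between the libraries with low Arf1 and the others. In homozygous replicates 2 to 4 it ran Arf3, Arf5, Arf4, Arf2, Arf1, Arf6. In all heterozygous libraries, and in the library labelled homozygous replicate 1, Arf1 stood second, after Arf3 and before Arf5. In heterozygous libraries the ranges of neighbours in this order did not overlap. In homozygous replicates 2 to 4 Arf1 could be separated from neither neighbour by range, since its 19.8 to 38.9 TPM overlapped the 19.1 to 23.1 TPM of Arf6 and the 38.6 to 44.4 TPM of Arf2. The ratio of Arf1 to Arf6 TPM was 1.08, 1.01 and 1.68 in homozygous replicates 2 to 4 and 13.0 to 15.0 in heterozygous libraries. By mean TPM Arf1 ranked 4618th of 16511 genes in homozygous replicates 2 to 4 and 359th in heterozygous libraries.

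Summed over the 6 genes, Arf transcript came to 1173, 861, 797 and 814 TPM in homozygous replicates 1 to 4 and to 1240, 1193, 1122 and 1202 TPM in heterozygous replicates 1 to 4. Homozygous replicates 2 to 4 averaged 824 ± 33.0 TPM (SD, n = 3) and heterozygous libraries 1189 ± 49.6 TPM (SD, n = 4), so the homozygous mean was 69.3% of the heterozygous one. Arf2 to Arf6 without Arf1 summed to 856, 840, 777 and 775 TPM in homozygous replicates 1 to 4 and to 889, 883, 790 and 857 TPM in heterozygous replicates 1 to 4. These sums overlapped, and the mean of homozygous replicates 2 to 4 was 93.3% of the heterozygous mean. By class, the mean sum in homozygous replicates 2 to 4 was 61.9% of the heterozygous mean for class I, 98.1% for class II and 86.2% for class III. The median log2 TPM difference of all genes over 7 libraries was itself -0.17, and none of these percentages is corrected for it. On the TMM scale the log2 fold change of Arf6, the only class III gene, was -0.00 over 7 libraries. No sum was tested, because the genes were chosen together.

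Shares of this sum show how the make-up of the family differed. Arf1 held 27.0%, 2.39%, 2.48% and 4.77% of summed Arf TPM in homozygous replicates 1 to 4 and 28.3%, 26.0%, 29.6% and 28.7% in heterozygous replicates 1 to 4. The mean share was 9.16% ± 11.9 in homozygous libraries (SD, n = 4) and 28.2% ± 1.53 in heterozygous libraries (SD, n = 4). Without the library labelled homozygous replicate 1 the homozygous mean was 3.21% ± 1.35 (SD, n = 3). Shares sum to 100%, so a smaller Arf1 share makes the others larger even where their levels are the same.

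Arf3 held 48.3%, 66.3%, 62.1% and 58.7% in homozygous replicates 1 to 4 and 47.3%, 48.7%, 44.2% and 46.6% in heterozygous replicates 1 to 4. Arf3 thus outweighed the other 5 genes together in homozygous replicates 2 to 4, and was a little below their sum in the other libraries. The Arf5 share was 10.5%, 14.4%, 16.6% and 15.8% in homozygous and 10.4%, 11.4%, 11.4% and 10.5% in heterozygous replicates 1 to 4. Arf4 held 8.48%, 10.2%, 11.3% and 12.4% in homozygous and 8.09%, 7.76%, 8.51% and 8.003% in heterozygous replicates 1 to 4. Both class II shares in homozygous replicates 2 to 4 were above those in any heterozygous library. Arf2 held 3.79%, 4.48%, 5.01% and 5.46% in homozygous and 4.08%, 4.12%, 4.22% and 4.17% in heterozygous replicates 1 to 4. The share of Arf6 was 1.960%, 2.21%, 2.45% and 2.84% in homozygous and 1.89%, 2.00%, 2.06% and 2.10% in heterozygous replicates 1 to 4. All 5 paralogs thus had larger shares in homozygous replicates 2 to 4 than in every heterozygous library, and the library labelled homozygous replicate 1 did not follow them.

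With Arf1 left out of the sum, the make-up of the other 5 genes was close in the groups. Arf3 then held 64.4% ± 3.19 in homozygous replicates 2 to 4 (SD, n = 3) and 65.0% ± 1.48 in heterozygous libraries (SD, n = 4). Arf5 held 16.1% ± 1.22 in homozygous replicates 2 to 4 and 15.2% ± 0.784 in heterozygous libraries. Arf4 held 11.7% ± 1.27 in homozygous replicates 2 to 4 and 11.3% ± 0.652 in heterozygous libraries. These 3 genes stood in nearly the same proportions in both groups. The Arf2 share was 5.15% ± 0.568 in homozygous replicates 2 to 4 and 5.78% ± 0.185 in heterozygous libraries, and the Arf6 share was 2.59% ± 0.364 in homozygous replicates 2 to 4 and 2.80% ± 0.156 in heterozygous libraries. For Arf3, Arf4 and Arf6 each difference of means was smaller than the larger SD of its pair, and so was that of Arf5, while that of Arf2 slightly exceeded it.

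**Figure D3:**
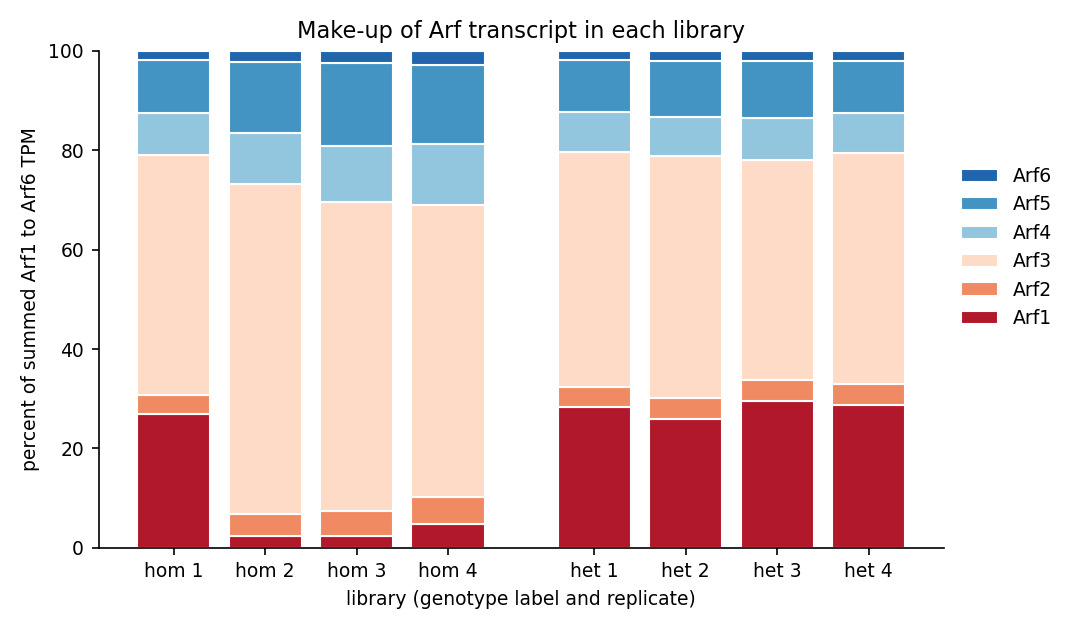
Percent of the summed TPM of Arf1 to Arf6 held by each gene, stacked to 100% for each library, with homozygous (hom) libraries left of heterozygous (het) ones. Arf1 takes 2.39% to 4.77% in homozygous replicates 2 to 4, 27.0% in the library labelled homozygous replicate 1 and 26.0% to 29.6% in heterozygous libraries.

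RSEM also gives each gene an isoform-weighted transcript length and an effective length, which is that length less a term for the library's fragment sizes. Both move when the mix of annotated isoforms does, and neither can show an exon missing from an annotated isoform. The Arf1 effective length was 1596, 1606, 1616 and 1606 bases in homozygous replicates 1 to 4 and 1604, 1605, 1601 and 1605 bases in heterozygous replicates 1 to 4. The values were nearly the same in libraries with and without most of the Arf1 transcript. Before the fragment term, Arf1 lengths lay between 1800 and 1803 bases in homozygous and between 1801 and 1802 bases in heterozygous libraries. The files hold Arf1 transcripts of 1800 bases (Arf1-201) and 1991 bases (Arf1-202), which differ in their first exon. The lengths correspond to a share of Arf1-202 in Arf1 of 0.487%, 1.07%, 0.0% and 1.54% in homozygous replicates 1 to 4 and of 0.717% to 0.874% in heterozygous libraries. Arf1-201 was thus the form that carried nearly all of the Arf1 signal in both groups.

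The class II genes had the largest length differences in the family. Arf5 lengths before the fragment term were 969, 951, 972 and 957 bases in homozygous replicates 1 to 4 and 988, 979, 982 and 985 bases in heterozygous replicates 1 to 4. Every homozygous library was below every heterozygous one, which held for 1.95% of the 11502 genes whose length varied and, among the 5 Arf genes of more than 1 transcript, for Arf5 alone. Effective lengths of Arf5 were 764, 755, 789 and 760 bases in homozygous replicates 1 to 4 and 791, 782, 781 and 788 bases in heterozygous replicates 1 to 4, and overlapped. Homozygous replicate 3, whose fragment term was 183.77 bases against 195.65 to 204.99 elsewhere, gave the overlap.

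Arf4 lengths before the fragment term were 1743, 1729, 1702 and 1692 bases in homozygous replicates 1 to 4 and 1763, 1759, 1735 and 1775 bases in heterozygous replicates 1 to 4. Only the library labelled homozygous replicate 1 reached the heterozygous range. Effective lengths of Arf4 were 1538, 1533, 1518 and 1496 bases in homozygous and 1566, 1562, 1534 and 1578 bases in heterozygous replicates 1 to 4. By limma on the log2 effective length, centred on each library's median, Arf4 differed by -0.04 over 8 libraries, or by -2.61% (unadjusted p = 0.0185, adjusted p = 0.897). For Arf5 it was -0.04, or -2.51% (limma unadjusted p = 0.0365, adjusted p = 0.973). No gene passed this test in either fit, 0.0% of 16511 genes over 8 libraries and 0.0% of 16559 over 7. At an unadjusted p under 0.05, 420 genes were longer and 406 shorter over 8 libraries, and 566 and 453 over 7. The annotated isoforms ran from 188 to 2165 bases for Arf4 and from 768 to 1116 for Arf5, and gene-level lengths do not tell which of them differed.

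Arf2 lengths before the fragment term lay between 2191 and 2251 bases in homozygous and between 2215 and 2250 bases in heterozygous libraries, with homozygous replicate 4 the lowest. Arf3 lengths lay between 3563 and 3567 bases in homozygous and between 3553 and 3571 bases in heterozygous libraries. Arf6 has a single transcript in the files, of 3730 bases in every library. Effective lengths of Arf2 were 1995 to 2067 bases in homozygous and 2018 to 2053 bases in heterozygous libraries, and those of Arf3 were 3362 to 3380 bases in homozygous and 3356 to 3374 bases in heterozygous libraries. Those of Arf6 were 3525 to 3546 bases in homozygous and 3529 to 3533 bases in heterozygous libraries. All of these overlapped over 8 libraries. TPM divides counts by the effective length, so a length difference of this size moves the TPM of Arf4 and Arf5 by a few percent relative to their counts.

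**Figure D4:**
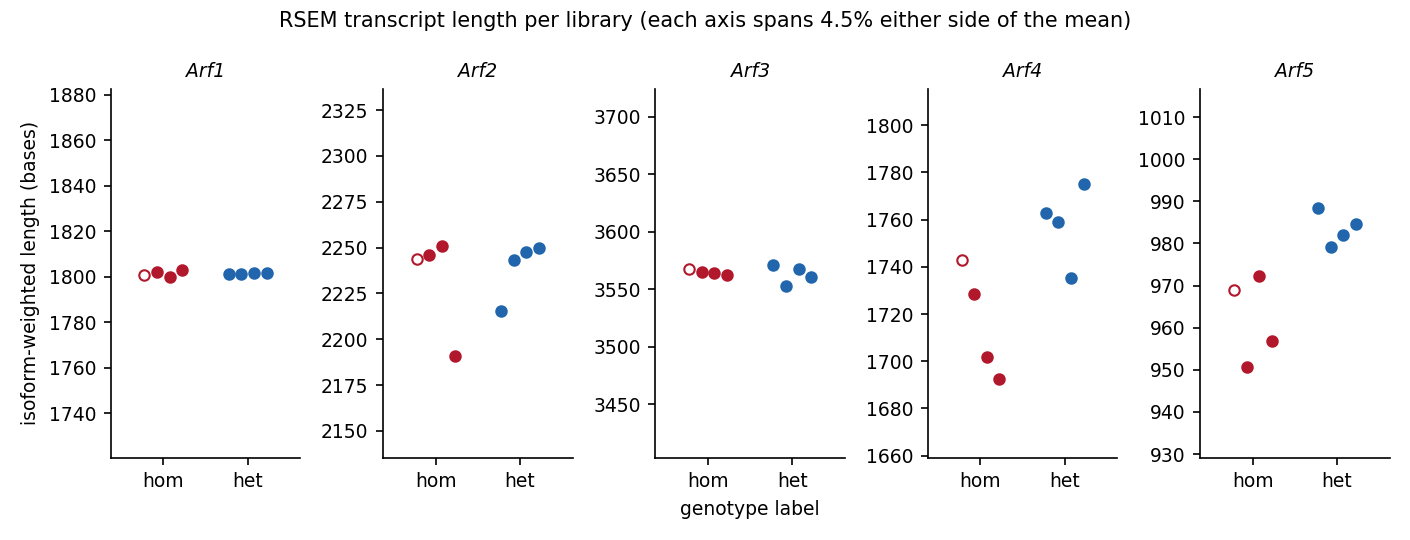
Isoform-weighted RSEM transcript length in bases for the 5 Arf genes with more than 1 annotated transcript, with 1 point per library, homozygous (hom) left of heterozygous (het) and an open point for the library labelled homozygous replicate 1. Arf5 lies between 951 and 972 bases in homozygous and between 979 and 988 bases in heterozygous libraries, Arf4 overlaps at 1 library, and Arf1, Arf2 and Arf3 overlap.

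Other genes of the ARF cycle were read from fixed lists in the same fits. Of 15 GEFs tested over 7 libraries, 0 passed as higher and 1 as lower; the median log2 fold change was -0.08, against 0.00 over all genes. Psd2, which encodes an exchange factor acting on ARF6, fell to 43.3 ± 4.32 CPM in homozygous replicates 2 to 4 (SD, n = 3), against 68.3 ± 4.97 CPM in heterozygous libraries (SD, n = 4; log2 fold change -0.66, SE 0.09, edgeR adjusted p = 0.016). The library labelled homozygous replicate 1 had 62.2 CPM. The Psd2 call was lost without homozygous replicate 2 (edgeR adjusted p = 0.068) or homozygous replicate 3 (edgeR adjusted p = 0.0747), and over 8 libraries (edgeR adjusted p = 0.136). Over its alternatives with 7 libraries the adjusted p ranged from 8.16e-09 with DESeq2 to 0.0747, and over 8 libraries DESeq2 called Psd2 (adjusted p = 0.0112). Gbf1, the Golgi exchange factor, was second in the 8-library fit at 80.3 ± 5.39 CPM in homozygous and 91.4 ± 4.62 CPM in heterozygous libraries (SD, n = 4 each, edgeR adjusted p = 0.206).

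Of 23 GAPs 22 were tested over 7 libraries, with 0 called higher and 1 lower; their median log2 fold change was -0.09. Asap1, a GAP with BAR and PH domains, fell to 114 ± 6.52 CPM in homozygous replicates 2 to 4 (SD, n = 3), against 152 ± 12.3 CPM in heterozygous libraries (SD, n = 4; log2 fold change -0.42, edgeR adjusted p = 0.0462). The library labelled homozygous replicate 1 had 130 CPM. That call was lost when any 1 of the 7 libraries was left out (edgeR adjusted p 0.0553 to 0.135) and over 8 libraries (edgeR adjusted p = 0.117). Over its alternatives with 7 libraries the lowest adjusted p was 0.000138, with DESeq2. The call over 7 libraries was also lost with limma-voom (adjusted p = 0.0549) and with edgeR without robust weighting (adjusted p = 0.0521), while over 8 libraries DESeq2 called Asap1 (adjusted p = 0.00217). Arap2, a GAP with PH domains, was at 92.9 ± 5.64 CPM in homozygous and 107.8 ± 4.83 CPM in heterozygous libraries (SD, n = 4 each, edgeR adjusted p = 0.154 over 8 libraries).

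The lists of COPI coat genes, ARF effectors outside COPI and related GTPases gave no call. Of the 9 COPI coat genes 0 were higher and 0 lower in either fit, with a median log2 fold change of 0.01 over 7 libraries; Cope, the epsilon subunit, was at 71.9 ± 2.86 CPM in homozygous replicates 2 to 4 and 63.8 ± 3.96 CPM in heterozygous libraries (edgeR adjusted p = 0.203). Copz1, the zeta subunit, was at 68.7 ± 1.62 CPM in homozygous replicates 2 to 4 and 66.1 ± 2.10 CPM in heterozygous libraries (edgeR adjusted p = 0.629). Of 33 effectors outside COPI 0 were higher and 0 lower in either fit. Arfip2, which encodes the BAR-domain protein arfaptin 2, was at 92.6 ± 6.00 CPM in homozygous replicates 2 to 4 and 78.9 ± 3.39 CPM in heterozygous libraries (edgeR adjusted p = 0.118). Plekha8, which encodes the glycolipid transfer protein FAPP2, was at 14.4 ± 0.144 CPM in homozygous replicates 2 to 4 and 16.8 ± 0.373 CPM in heterozygous libraries (edgeR adjusted p = 0.145). Of 5 related GTPases 0 were higher and 0 lower in either fit, with a median of 0.10 over 7 libraries. Sar1b, the GTPase of the COPII coat, was at 51.4 ± 0.768 CPM in homozygous replicates 2 to 4 and 44.4 ± 3.02 CPM in heterozygous libraries (edgeR adjusted p = 0.142), and Trim23, whose protein has an ARF domain, at 73.7 ± 3.79 CPM in homozygous replicates 2 to 4 and 66.1 ± 4.73 CPM in heterozygous libraries (edgeR adjusted p = 0.275). Over all 16511 and 16560 genes tested, 0.0% and 1.22% passed, so 1 gene of 15 and 1 of 22 are single calls, and these lists were not tested as sets.

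For each Arf gene the 3 genes of most similar pattern over the 8 libraries were taken by Pearson's r of log2-CPM among 13317 genes, as a description. For Arf1 these were Mrpl55 (r = 0.99), Limk1 (r = 0.99) and Pik3r3 (r = 0.98), and each was lower in homozygous replicates 2 to 4 than in the other 5 libraries. Mrpl55, whose gene encodes a mitochondrial ribosomal protein, was at 14.4, 2.87, 3.47 and 3.52 CPM in homozygous and at 13.0, 12.6, 14.5 and 12.1 CPM in heterozygous replicates 1 to 4. Limk1, a kinase that phosphorylates cofilin, was at 75.2, 52.7, 55.7 and 58.7 CPM in homozygous and at 75.2, 77.1, 81.6 and 76.5 CPM in heterozygous replicates 1 to 4. These values of r rest on the 3 libraries with low Arf1. For Arf3 the genes were Pip5k1a, Dazl and Gabra4 (r = 0.97, 0.97 and 0.96), and for Arf5 Espn, Slc30a3 and Poli (r = 0.99, 0.98 and 0.97). Arf5 and Slc30a3, which encodes the zinc transporter of synaptic vesicles, were both highest in homozygous replicate 3, at 74.8 and 113 CPM. For Arf2 they were Gpr180, Osbpl1a and Daglb (r = 0.98, 0.97 and 0.97), for Arf4 Ube2e3, Pabpn1 and Ak6 (each r = 0.96 or 0.97) and for Arf6 Aif1, Polr3d and Dbf4 (r = 0.95, 0.94 and 0.94). Each r is the highest among 13317 genes over 8 points that share depth and quality differences, and is given without a p.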

How the data were processed

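RNA from 8 mouse spinal cords was sequenced, 1 library per mouse. The submitters' processing notes name cutadapt, STAR, RSEM, Picard and the build mm10; for versions, annotation and strand setting the sources used here have no entry. The authors deposited RSEM expected counts, TPM, lengths and effective lengths per gene and library, per the file headers. The authors deposited log2 fold changes, p-values and false discovery rates of their own comparison of 6 libraries, with its settings unstated.

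Expected counts were rounded, and the genotype labels were compared (homozygous over heterozygous) with edgeR 4.0.16 (R 4.3.3; TMM, filterByExpr by group, robust quasi-likelihood), adjusted by Benjamini-Hochberg over all genes tested, at 0.05. Effective lengths were tested by limma 3.58.1. Both were repeated without the library labelled homozygous replicate 1, because of its Arf1 level. Procedures were tested on simulated data, drawn independently for each gene and library. In each run 200 genes were changed, for expression only among genes above 1 CPM and for length only within a set range of spread. Over 8 and 7 libraries, 56.0% and 63.8% of 1.5-fold expression changes and 95.1% and 98.1% of 4-fold changes were recovered. Log2 length shifts of 0.1 were recovered for 47.2% and 47.8%, and smaller shifts, as of Arf4 and Arf5, were not simulated. Unchanged genes made up 5.06% to 7.23% of calls. The simulated libraries had no shared quality differences and none deviated as the library labelled homozygous replicate 1 did. These rates therefore do not give the chance of finding a change in the real libraries. Whether samples came from separate litters or batches is not stated, so p-values measure the spread between these libraries. The Arf genes, lists and alternatives were chosen with earlier results of these data known. The text names Arf1 to Arf6; up to 3 genes of each list with the smallest p past the threshold, or the 2 with the smallest p; and the 3 genes most correlated with each Arf gene (mean log2-CPM above 0; predicted, Rik, Xist and Y-linked genes left out). Alternatives were other size factors, library totals, other filters, DESeq2 1.42.0, limma-voom, a quasi-likelihood fit without robust weighting, limma on log2(TPM + 1) and log2(TPM + 0.1), lengths without centring, and each library left out; RSEM length, the authors' 6 libraries, and leaving out homozygous replicates 1 and 3 were added after seeing the data. Coding sequences from GENCODE M21 (GRCm38, also called mm10) were aligned with MAFFT 7.526. The files' identifiers of Arf3, Arf4 and Arf6 have another version than M21, so their transcripts and positions can differ, as the length of Arf6 does. Library totals of 26321522 to 37879426 expected counts gave each Arf gene at least 567 in each library. Counting error and other spread between libraries were not separated.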

Additional observations from a re-analysis of the deposited data

Results flagged for a closer look

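Each group of 4 libraries was checked for a single library far from the other 3, in 38 groups of values of the 6 genes and their sums; 4 stood out, and chance gives about 1 in 20. For Arf1 it was the library labelled homozygous replicate 1, with 316 TPM against 19.8 to 38.9 TPM in homozygous replicates 2 to 4. The same library stood out for the Arf1 share of summed Arf TPM, at 27.0% against 2.39% to 4.77%. It also stood out for the summed TPM of all 6 genes, at 1173 TPM against 797 to 861 TPM. These 3 values follow from 1 measurement, the Arf1 count of that library. For Arf2 it was homozygous replicate 4, whose RSEM length of 2191 bases compared with 2244 to 2251 bases in the other 3 homozygous libraries and 2215 to 2250 bases in heterozygous ones. The RNA integrity number was 8 in that library and 9 in the other 7; its part in the Arf2 length was not tested.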

How the results depend on the processing

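Of 472 alternative values, 399 kept their direction and side of the threshold, or their size. Among the alternatives to the 8-library fit, Arf1 was called only where the library labelled homozygous replicate 1 was omitted. These were its omission alone (log2 fold change -3.46), the authors' 6 libraries (-3.43) and omission of homozygous replicates 1 and 3 (-3.33). With 1 library left out the Arf1 value ran from -3.46 to -1.34. On all 8 libraries it was -2.60 by limma-voom and -2.78 and -2.82 on the log2 TPM scales, without passing. By limma on log2(TPM + 1) and then log2(TPM + 0.1), on which scale most genes were below 0, Arf3 turned to -0.0765 and -0.0766 over 8 libraries (-0.112 and -0.112 over 7), Arf4 to -0.0252 and -0.0254 (-0.0499 and -0.0504) and Arf5 to -0.0265 and -0.0266 (-0.0120 and -0.0121), and Arf2 passed over 7 libraries at -0.26 and -0.27. Arf6 was at -0.17 and -0.18 on these scales over 8 libraries and at -0.21 and -0.22 over 7, without passing. In edgeR Arf6, near 0, turned to 0.0011 and 0.00051 over 8 and 7 libraries with at least 1 CPM required, and ran from -0.0302 to 0.0330 and from -0.0501 to 0.0477 with 1 library left out. In shares of expected counts in place of TPM the Arf1 difference over 7 libraries was -16.9 percentage points, against -24.9.

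Genes called over 8 libraries numbered 63 without a filter, 679 with DESeq2, 1 and 37 on log2 TPM with pseudocounts of 1 and 0.1, 232 with the authors' 6 libraries, 6 without homozygous replicates 1 and 3, and 0 to 202 with 1 library left out (40 without heterozygous replicate 1, 202 without homozygous replicate 1). Over 7 libraries they numbered 444 without a filter, 1081 with DESeq2, 109 with limma-voom, 2190 and 2292 on log2 TPM, and 6 to 402 with 1 library left out. Log2 effective lengths near 0 changed sign: Arf1 over 8 libraries to -4.63e-05 with RSEM length, and with 1 library left out Arf1 ran from -0.00187 to 0.00273, Arf2 from -0.0106 to 0.00564 and Arf3 from -0.00122 to 0.00156 over 8 libraries, and Arf2 from -0.0148 to 0.00908 and Arf3 from -0.000539 to 0.00212 over 7. Length calls ranged from 0 to 1 over 8 libraries and from 0 to 2 over 7. The cause of these changes was not tested. No paired analysis was possible because the labels give each animal its own number and no pair. Sex, age and litter were not in the labels and could not be modelled.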
